A study of Mus musculus with 4 samples.

Results

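Ccr7, S1pr1, Tcf7, Lef1, Klf2, Bach2, Foxp1, Satb1 and Id3 are genes that naive T cells use to stay quiescent and to circulate through lymph nodes. The 9 genes were taken by name, with no threshold on their values, and all 9 were found by symbol among the 55450 genes of the authors' deposited table. They were measured by RNA sequencing in Th17 cells, helper T cells that make IL-17, grown from naive CD4+ T cells of mice that were 8 to 12 weeks old. The cells were activated with 0.25 µg/mL anti-CD3ε and 1 µg/mL anti-CD28, transduced with a retrovirus after 24 h, and then polarized for 72 h in IL-6 at 20 ng/mL together with TGF-β at 0.3 ng/mL. The compared groups were PSIN_sgAdarb1, a vector with a CRISPR guide against Adarb1, and the PSIN empty vector, with 2 cultures a group, and each of 2 donor mice gave a culture to either group. Every culture is labelled as carrying the Cas9 transgene, while the design text calls the mice wildtype, and the control vector held no guide. The product of Adarb1 is ADAR2, a deaminase that turns adenosine into inosine within double-stranded RNA.

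The sample titles were used for the groups, since the treatment tag goes against the title in 2 of the 4 samples. The authors' deposited table gives for each gene a mean normalized count over all libraries and 1 fold change with its standard error (SE). It also holds 4 columns of library values whose names match no sample label, so levels per culture and depths were not used here, and no value below has a spread over cultures. Which group is the numerator of the fold changes is not stated in the table; they are read here with sgAdarb1 over empty vector, as the design text orders them. If the authors used the other order, every sign turns, and if they grouped libraries by the treatment tag, the values compare the donors and not the vectors.

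Naive T cells enter lymph nodes along the chemokines CCL19 and CCL21, which CCR7 senses, and leave them along sphingosine 1-phosphate (S1P), which S1PR1 senses. KLF2 activates S1pr1, and FOXO1 acts upstream of Klf2, Il7r and Ccr7. TCF-1 (encoded by Tcf7), LEF-1, BACH2, FOXP1 and SATB1 hold the naive or stem-like state and restrain effector programmes, and ID3 blocks the E proteins. Activation of a T cell through its receptor lowers many of these genes, and Th17 cells are known to keep part of the TCF-1 programme.

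Promoter letters of 4 of the genes are shown, because Klf2 and Id3 had the lowest levels and the widest errors, while the paralogues Tcf7 and Lef1 were abundant. RefSeq promoters of 300 bases, 250 before the transcript start and 50 after it, on GRCm38.p6 (the assembly behind mm10) matched 7 of the 9 genes; Ccr7 and S1pr1 were not matched. Where a gene had several starts, the one nearest to the GENCODE gene start was taken; for Bach2 it lies 178631 bases from that start, inside the gene, and for the other 6 at most 1728 bases away. Capitals mark the CACCC box, the short motif bound by KLF factors, or its reverse complement GGGTG.
Klf2 promoter, chr8:72318812-72319111 (+ strand): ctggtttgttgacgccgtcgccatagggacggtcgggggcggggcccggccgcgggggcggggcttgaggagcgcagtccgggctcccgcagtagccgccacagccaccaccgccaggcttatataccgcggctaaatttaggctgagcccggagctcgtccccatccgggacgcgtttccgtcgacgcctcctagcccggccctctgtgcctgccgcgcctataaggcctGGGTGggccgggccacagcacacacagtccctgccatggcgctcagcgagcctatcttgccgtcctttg
Id3 promoter, chr4:136143572-136143871 (+ strand): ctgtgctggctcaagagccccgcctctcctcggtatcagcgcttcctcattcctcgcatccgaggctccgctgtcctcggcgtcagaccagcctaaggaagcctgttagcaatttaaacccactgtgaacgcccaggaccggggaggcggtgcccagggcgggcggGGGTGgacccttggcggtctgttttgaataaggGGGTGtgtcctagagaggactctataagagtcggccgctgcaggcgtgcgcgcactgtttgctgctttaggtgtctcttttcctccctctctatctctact
Tcf7 promoter, chr11:52282965-52283264 (- strand): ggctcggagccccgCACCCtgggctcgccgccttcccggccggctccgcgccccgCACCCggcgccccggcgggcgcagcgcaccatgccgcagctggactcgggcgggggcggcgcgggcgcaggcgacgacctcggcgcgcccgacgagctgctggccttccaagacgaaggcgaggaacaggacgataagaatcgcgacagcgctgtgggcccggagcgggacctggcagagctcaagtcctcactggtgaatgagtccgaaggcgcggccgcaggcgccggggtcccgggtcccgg
Lef1 promoter, chr3:131110073-131110372 (+ strand): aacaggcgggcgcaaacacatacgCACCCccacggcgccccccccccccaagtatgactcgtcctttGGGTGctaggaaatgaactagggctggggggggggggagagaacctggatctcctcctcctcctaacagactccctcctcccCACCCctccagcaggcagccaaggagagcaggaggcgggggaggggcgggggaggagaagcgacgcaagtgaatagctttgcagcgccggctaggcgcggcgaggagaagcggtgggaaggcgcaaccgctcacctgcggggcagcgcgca
In these letters, read from the transcript start, the Klf2 box begins at -19 and the Id3 boxes at -84 and -51. Counted from the annotated start, both Tcf7 boxes lie farther out, at -236 and -195, and Lef1 has 3, at -226, -183 and -101. Between the Tcf7 boxes and that start the letters hold an ATG, and its reading frame meets no stop within the window. Part of the Tcf7 window may therefore be coding sequence of a longer transcript, which was not tested. A CACCC box on either strand was in 6 of the 7 matched promoters and in 57.52% of all 32851 promoters. Only that of Bach2, whose window lies inside the annotated gene, lacked it. The TCF/LEF letters CTTTGA or CTTTGT, on either strand, were in the promoters of Bach2 and Foxp1 and in 31.2% of all promoters. The E-box CAGGTG was in those of Lef1 and Satb1 and in 20.21% of all promoters. The forkhead letters TGTTTAC (3.65% of all promoters) and the BACH and AP-1 letters TGAGTCA (5.2%) were in none of the 7. None of these motifs overlap each other in the 7 promoters, and a match is a description of letters, not a bound site.

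None of the 9 genes rose or fell past the threshold, an adjusted p below 0.05 (DESeq2) in the authors' deposited table. The table as a whole gave 0 calls in 29383 tested genes, a background of 0.0%, so the members' count says nothing particular about them. At an unadjusted p below 0.05 the members again numbered 0, beside 61 of all genes (0.208%). Where nothing changes, 5% of genes would fall below that threshold by chance. The share seen is far under it at each of these levels, so the deposited SEs are wide for these data. The p-values and intervals below are given as deposited and share this limit. All 9 had a mean normalized count of at least 10. The log2 fold change was positive for 8 of the 9 and negative for Klf2, with a median of 0.06. Among all 14547 genes with a mean of at least 10, the share above 0 was 50.5% and the median 0.0017; at a mean of at least 1000, where 7 of 7 members were positive, the share of all genes was 49.2%. The intervals of all 9 genes span 0, and they have the stretch from -0.10 to 0.19 in common.

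**Figure D1:**
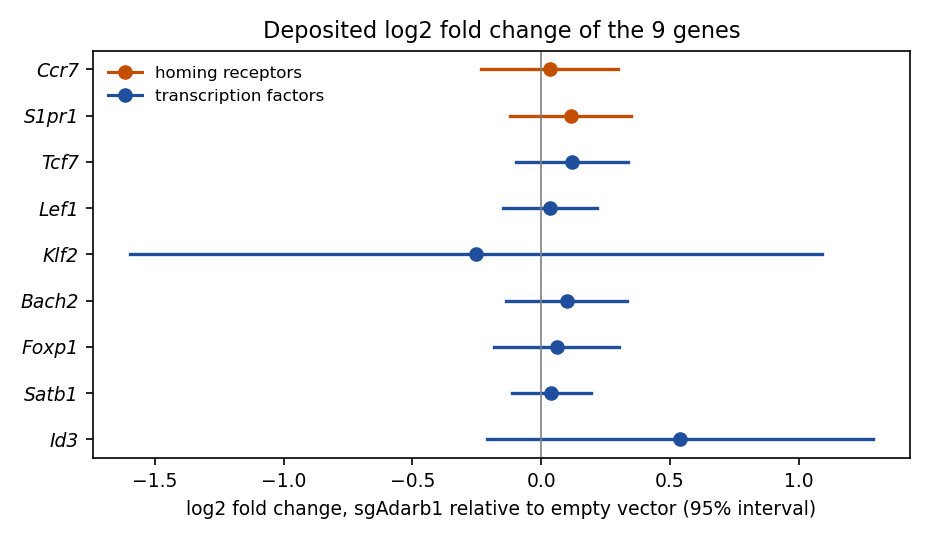
Log2 fold change of each of the 9 genes (points) with its 95% interval (lines), horizontal axis in log2 units, sgAdarb1 relative to empty vector; colours separate homing receptors from transcription factors. Every interval crosses 0, and those of Klf2 and Id3 are the widest.

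The homing receptor Ccr7 (ENSMUSG00000037944.8; chromosome 11, 99144196 to 99155077, minus strand, mm10) averaged 1698 normalized counts, and in the authors' deposited table its log2 fold change was 0.03 ± 0.14 (SE). Its 95% interval ran from -0.23 to 0.30, or from 0.852-fold to 1.23-fold (unadjusted p = 0.806, DESeq2, 2 cultures a group). The egress receptor S1pr1 (ENSMUSG00000045092.8; chromosome 3, 115710433 to 115715072, minus strand) had a mean of 2120 and stood at 0.11 ± 0.12 in the authors' deposited table. Its interval reached from -0.12 to 0.35, or from 0.919-fold to 1.27-fold (unadjusted p = 0.343, DESeq2). For either receptor a change in mRNA beyond these bounds lies outside the interval, and one within them could not be resolved.

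Tcf7 and Lef1, which encode related HMG-box factors that bind the same DNA letters, gave intervals that overlap. Tcf7 (ENSMUSG00000000782.15; chromosome 11, 52252371 to 52283014, minus strand) averaged 3385 normalized counts, and in the authors' deposited table its log2 fold change was 0.12 ± 0.11 (interval -0.10 to 0.34). Lef1 (ENSMUSG00000027985.14; chromosome 3, 131110471 to 131224356, plus strand) had a mean of 5554 and stood at 0.03 ± 0.09 in the authors' deposited table (interval -0.15 to 0.22). Their unadjusted p-values were 0.276 and 0.713 (DESeq2).

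Bach2, a repressor that holds back effector differentiation, and Foxp1, a forkhead factor needed for quiescence, lay close to each other. Bach2 (ENSMUSG00000040270.16; chromosome 4, 32238804 to 32586108, plus strand) averaged 3277 normalized counts, and in the authors' deposited table its log2 fold change was 0.10 ± 0.12 (interval -0.14 to 0.33, unadjusted p = 0.414). Foxp1 (ENSMUSG00000030067.17; chromosome 6, 98925338 to 99522721, minus strand) had a mean of 2193 and stood at 0.06 ± 0.12 in the authors' deposited table (interval -0.18 to 0.30, unadjusted p = 0.63). Satb1, a chromatin organizer of T cells (ENSMUSG00000023927.15; chromosome 17, 51736187 to 51833290, minus strand), was the most deeply counted of the 9, with a mean of 25616. It had the narrowest error, at 0.04 ± 0.08 in the authors' deposited table, and an interval from 0.924-fold to 1.14-fold (unadjusted p = 0.616).

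Klf2 and Id3 were the 2 genes whose values leave a wide range open. Klf2 (ENSMUSG00000055148.7; chromosome 8, 72319033 to 72321656, plus strand) averaged only 39.5 normalized counts, and in the authors' deposited table its log2 fold change was -0.25 ± 0.68. Its interval ran from 0.331-fold to 2.13-fold (unadjusted p = 0.712), so neither a halving nor a doubling of Klf2 mRNA could be resolved at this level. Id3 (ENSMUSG00000007872.3; chromosome 4, 136143497 to 136145755, plus strand) had a mean of 145 and stood at 0.54 ± 0.38, the largest value of the 9, in the authors' deposited table. That is 1.45-fold, with an interval from 0.865-fold to 2.44-fold and an unadjusted p of 0.158. By the size of its Wald statistic, the fold change divided by its SE, Id3 (1.41) lay at percentile 97.84 of genes with a mean of at least 10, Tcf7 (1.09) at 93.82 and S1pr1 (0.95) at 90.33. Ccr7 lay at percentile 35.18. The Wald statistics of all these genes had an SD of only 0.585, so a high percentile here goes with an ordinary p.

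**Figure D2:**
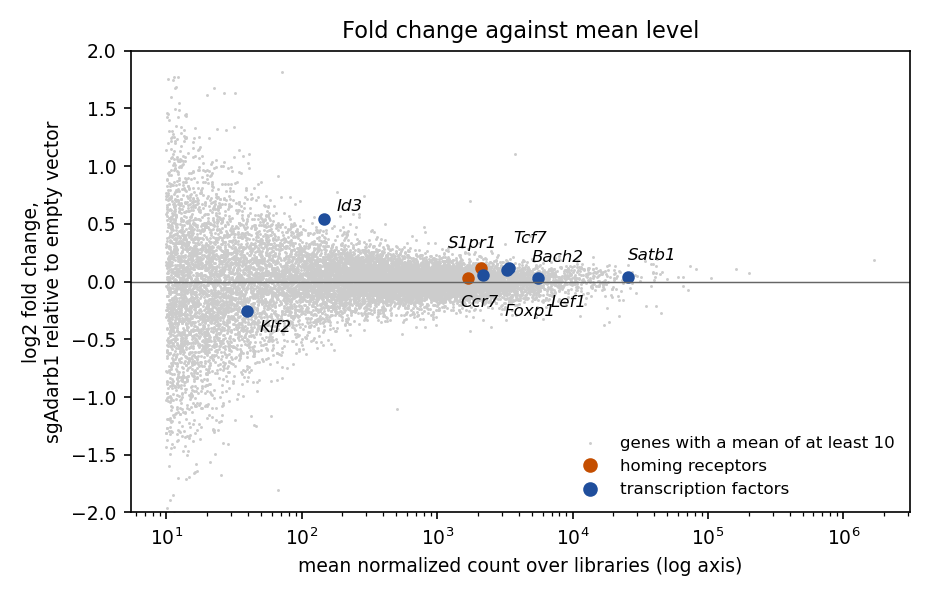
Log2 fold change (vertical axis, sgAdarb1 relative to empty vector) against mean normalized count (horizontal log axis) for genes with a mean of at least 10 (grey), with the 9 genes in colour; 18 genes beyond 2 log2 units are outside the axis. The 7 abundant members sit in the dense band near 0, and Id3 and Klf2 sit where genes of low mean scatter more widely.

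The width of the errors followed the mean, as it did for other genes. The SE of each member was between 0.92 and 1.13 times the running median of genes of like mean. A lone gene passing an adjusted p of 0.05 over 29383 genes needs an unadjusted p of 1.7e-06. With its SE, Satb1 would have needed a difference of 1.3-fold, Lef1 of 1.36-fold, Tcf7 of 1.44-fold and Ccr7 of 1.57-fold. Id3 would have needed 3.55-fold and Klf2 9.7-fold. The intervals of 7 of the 9 lay wholly inside 1.5-fold in either direction, as did those of 47.0% of genes with a mean of at least 10. Those 7 all had a mean of at least 1000, and at that level 99.2% of all genes were inside as well.

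Per kilobase of annotated exon, the level of the 9 genes in these cultures ran from 21.4 to 1346 normalized counts. Satb1 (1346) and Tcf7 (1290) were highest, near percentile 96 of genes with a mean of at least 10. Ccr7 (858), S1pr1 (696) and Lef1 (632) followed, then Bach2 (330) and Foxp1 (159). Id3 (80.9) and Klf2 (21.4, percentile 27.16) were lowest. Lef1 moved to the second place, at 1584 behind Satb1 at 2229, when the same counts were divided by the exon length of the basic annotation. Reads were not counted anew over those exons, and this alternative was chosen after the data were seen. These levels pool all cultures and no spread over cultures was used, so which neighbours in the order differ was not tested. On the same per-kilobase scale Cd3e stood at 1262 and Cd4 at 3791, Id2 at 1571 and Il7r at 640.

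**Figure D3:**
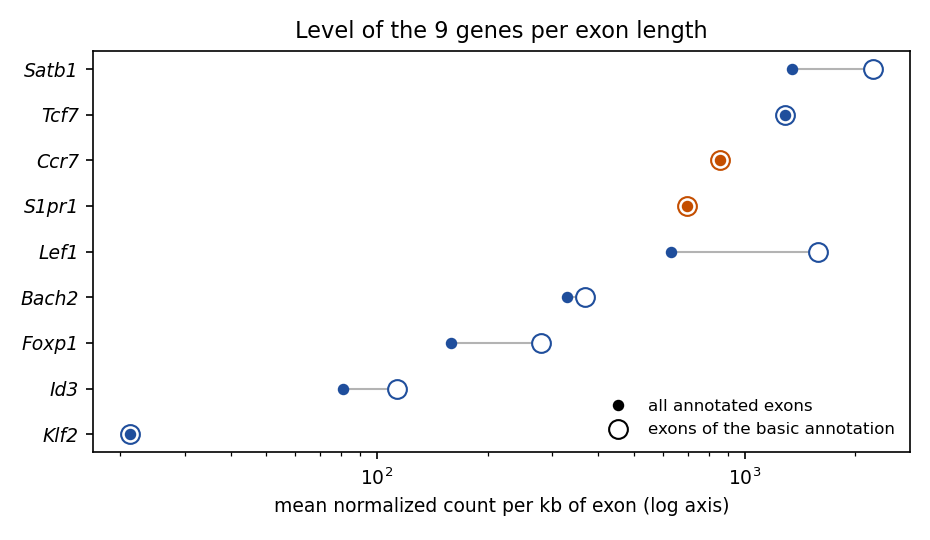
Mean normalized count per kilobase of exon (horizontal log axis) of the 9 genes, pooled over all libraries, with all annotated exons (small filled points) and with exons of the basic annotation (large open points). Satb1 leads on either length and Klf2 is lowest at 21.4, while Lef1 moves from 632 to 1584.

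The genes differ greatly in structure. The gene bodies of Foxp1 and Bach2 span 597384 and 347305 bases, of which annotated exons cover 2.3% and 2.86%, while Id3 spans 2259 bases with 79.28% exon and Klf2 2624 bases with 70.39%. GC content of the longest transcript ran from 44.82% in Satb1 to 61.56% in Klf2. When a trend of fold change on exon length and GC content over all genes was removed, Ccr7 turned to -0.01, which left 7 of the 9 positive beside 48.5% of all genes. Under that setting Satb1 moved to 0.09, Foxp1 to 0.10, Klf2 to -0.34 and Id3 to 0.48.

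**Figure D4:**
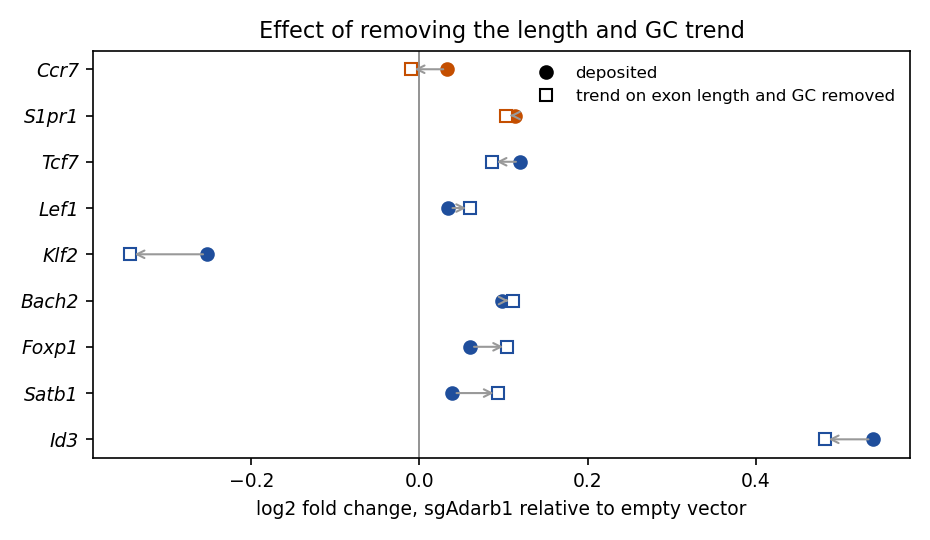
Log2 fold change (horizontal axis, sgAdarb1 relative to empty vector) of the 9 genes as deposited (filled circles) and after a trend on exon length and GC content was removed (open squares). The long genes Lef1, Bach2, Foxp1 and Satb1 move to the right, the other 5 move to the left, and Ccr7 crosses 0 to -0.01.

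Overlapping annotation touches 5 of the 9: Tcf7, Lef1, Bach2, Foxp1 and Satb1 share their span with 17 other annotated genes, none of which has a mean above 2.5% of that of its member. Overlap was taken over whole spans, introns included, and overlap of exons was not computed. The sources used here do not state whether counting used strand. Whether reads of antisense partners such as Bach2os (mean 58.4) and Gm43352 at Lef1 (mean 101) entered the members' counts is therefore not known. Satb1 holds 5 unconfirmed same-strand transcripts (the TEC class) with a summed mean of 2310, and 3 of them were negative. Gm37248 stood at -0.32 ± 0.22, E430014B02Rik at -0.28 ± 0.26 and C230085N15Rik at -0.19 ± 0.18 in the authors' deposited table, against 0.04 ± 0.08 for Satb1 itself. Gm36931 and 5830444F18Rik stood at 0.04 ± 0.20 and 0.03 ± 0.24 there. Of the 13 overlapping genes with a mean of at least 10, 12 were non-coding, and 9 of these 12 were negative (75.0%), beside 63.66% of all 1442 genes of the same non-coding types. The other is the protein-coding Gm20696 at Foxp1, at 0.12 ± 0.62 in the authors' deposited table. None of the 13 passed the threshold.

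Related genes were read from lists by role, and in each list 0 members passed the threshold or an unadjusted p below 0.05 (DESeq2, the authors' deposited table). For the counts by sign below, the share of positive values among all genes with a mean of at least 10 was 50.5%. Quiescence factors had 16 of 22 positive and a median log2 fold change of 0.08. Among them the antiproliferative genes Btg2 and Btg1 stood at 0.19 ± 0.16 and 0.11 ± 0.10 in the authors' deposited table. Foxo1, the forkhead factor upstream of several homing genes, stood at 0.12 ± 0.11, as did Klf13 at 0.12 ± 0.11, and Slfn2, which protects T cell quiescence, at 0.11 ± 0.10 in the authors' deposited table. Naive surface and homing genes were split, 9 positive and 10 negative of 19 with a mean of at least 10, with a median of -0.01. Il7r, the receptor for the survival cytokine IL-7, stood at 0.04 ± 0.11 and the integrin gene Itgal at 0.08 ± 0.08 in the authors' deposited table. Gpr183, an oxysterol receptor that guides positioning in lymphoid tissue, stood at -0.11 ± 0.16 and Nsg2 at 0.58 ± 0.72 (mean 40.4) in the authors' deposited table.

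In the S1P and CCR7 pathway, 9 of 14 measured genes were positive (median 0.08), and Ccl19 and Ccl21a, the ligands made by stromal cells, had a mean of 0. The GTPase gene Rac2 and the G protein gene Gnai2, which act below chemokine receptors, stood at 0.13 ± 0.09 and 0.11 ± 0.08 in the authors' deposited table. The S1P lyase gene Sgpl1 stood at 0.16 ± 0.15 and the S1P kinase gene Sphk1 at 0.38 ± 0.50 in the authors' deposited table. Cd69, whose protein removes S1PR1 from the cell surface, had a mean of 2222 and stood at -0.03 ± 0.12 in the authors' deposited table, and it turned to 0.04 with the length and GC trend removed. Surface protein was not measured.

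Among paralogues and partners of the 7 factors, 12 of 22 measured genes were positive (median 0.04). The E protein genes, whose products ID3 binds, stood at -0.04 ± 0.13 for Tcf3, -0.13 ± 0.14 for Tcf12 and -0.27 ± 0.23 for Tcf4 in the authors' deposited table. Id2, the Id family gene of effector T cells, averaged 3829 normalized counts and stood at 0.02 ± 0.10 in the authors' deposited table. The Groucho corepressor gene Tle3, a partner of TCF-1 and LEF-1, stood at 0.12 ± 0.10 and Klf7 at 0.18 ± 0.19 in the authors' deposited table. The paralogue Tcf7l2 had a mean of 3.94.

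Activation and effector genes, which rise when T cells leave the naive state, lay mostly on the same side as the members. Of them 14 of 16 were positive, beside 50.5% of all genes, none past the threshold, with a median of 0.04. With the length and GC trend removed, 11 of 16 were positive, beside 48.5% of all genes. The 2 negative as deposited were Prdm1 at -0.32 ± 0.45 and Ccr6 at -0.19 ± 0.49 in the authors' deposited table. Maf, a factor of IL-17 and IL-10 producing T cells, had the smallest p of that list, at 0.33 ± 0.19 in the authors' deposited table (unadjusted p = 0.0755). Bhlhe40, Nr4a1 and Cxcr6 stood at 0.08 ± 0.08, 0.11 ± 0.13 and 0.16 ± 0.21 in the authors' deposited table.

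**Figure D5:**
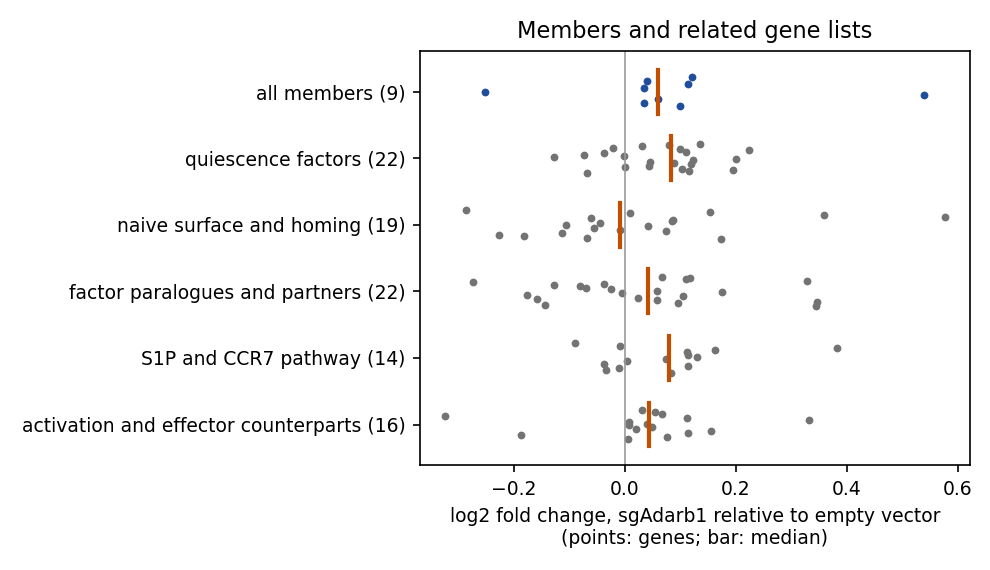
Log2 fold change (horizontal axis, sgAdarb1 relative to empty vector) of each measured gene (points) in the 9 members and 5 related lists, with the median of each as a vertical bar and the number of genes in brackets. Medians lie between -0.01 and 0.08, and the lists overlap along the axis.

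The cultures carried the markers of their label: Cd3d, Cd3e, Cd3g, Cd4, Il17a, Il17f and Il23r had means between 611 and 15286 in the authors' deposited table, and Il17a, the signature cytokine, stood at 0.70 ± 0.15 there, with the smallest p of all genes (unadjusted 2.9e-06, adjusted p = 0.0709, DESeq2). Il17f stood at 1.11 ± 0.53 (unadjusted p = 0.0383, DESeq2) in the authors' deposited table. B cells also express Ccr7, Klf2, Foxp1 and Bach2, and all 8 B cell markers were detected, with a summed mean of 2522. The B cell factor genes Pax5 and Ebf1 stood at 0.10 ± 0.87 and -0.07 ± 0.18 in the authors' deposited table, and their part in the members' values was not tested. Of CD8 T and NK markers 5 of 6 had a mean of at least 10 (summed mean 2129), and of myeloid and dendritic markers 5 of 8 (summed mean 78.5, Siglech at 0). Endothelial cells express S1pr1 and Klf2 as well, and of their 6 markers 2 had a mean of at least 10, Pecam1 (192), which leukocytes also express, and Egfl7 (34.0). The other 4, Cdh5, Kdr, Tek and Emcn, had means of at most 2.97, and the part of endothelial RNA in the members' values was not tested. In bulk RNA, fewer cells of a type and less RNA per cell cannot be told apart.

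The targeted gene, Adarb1, averaged 2130 normalized counts, and in the authors' deposited table its log2 fold change was 0.11 ± 0.12 (unadjusted p = 0.381), close to the values of S1pr1 and Tcf7. A Cas9 cut need not lower mRNA, so this value does not check the labels.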

How the data were processed

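Ribosome-depleted RNA of 4 mouse Th17 cultures was sequenced by the authors. Per the submitters' processing notes, reads went through STAR (2.6.1a) and featureCounts on mm10, and DESeq2 (1.18.1) was used. The fitted formula, any donor term, strandedness and gene models: not given in the sources used here. Per the file headers, the authors deposited for each gene a mean signal (mean count divided by size factors, called the mean normalized count), a log2 fold change, its SE and a Wald score, here the Wald statistic, which equalled the fold change divided by its SE. Each p-value deposited by the authors matched a two-sided normal test on this statistic, and Benjamini-Hochberg adjustment of the 29383 genes that have one gave back the deposited adjusted values. Another 26067 genes were at 0 throughout. The 4 columns of library values, which match no label, were not used, so depths per library, edgeR refits, a donor block and values per culture were not computed.

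All 55450 identifiers matched GENCODE M21 symbols and positions (mm10). Intervals are 95% normal intervals from the deposited SE. Lists are described by counts and medians of members whose mean was at least 10, with no set test. The trend on exon length and GC content was a weighted quadratic fit, and the running median used 501 genes, in Python 3.11.15 with numpy 2.4.6 and scipy 1.17.1. The trend fit and the adjustment were tested on simulated data whose noise was drawn from the deposited SEs. That test therefore could not check the SEs or the intervals themselves. The running median was tried only on a constant value. The rule named all 9 members, up to 4 genes of smallest p per list, Il7r, Foxo1, Cd69, Id2, Tcf3 and Adarb1, and 1 more that is not reported here. Overlapping genes, markers and genes given per kilobase were added after their values were seen. Members and lists were chosen with earlier results of these data known. Nothing in the labels says more of the cultures than their donor. The p-values rest on these cultures alone, and whether donor differences enter the SE is not known.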

Additional observations from a re-analysis of the deposited data

How the results depend on the processing

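None of the 9 members and none of the related genes passed under any of the 5 settings run. Over all genes, 0 passed as deposited, against 3 at an adjusted p below 0.1. Adjustment restricted to means of 10 or more gave 3, and to means of 50 or more 2 (fewer genes were tested in either). Centring fold changes on the running median of genes of like mean gave 3. So did removing the trend on exon length and GC content. Both of these were also adjusted over means of 10 or more, which alone gave 3, so neither changed that count. None of the passing genes was a member, and Il17a was among them under each of the 5 settings. With that trend removed, Ccr7 turned to -0.011 and Cd69 to 0.037, both far inside their intervals. The members' median was 0.06 as deposited, 0.06 when centred and 0.09 without the trend. Klf2 has no value under the minimum of 50. Removing the trend turned the split of the 16 effector genes from 14 to 11 positive. Per kilobase levels of 3 members moved by over 1.5 times when the same counts were divided by the exon length of the basic annotation. No paired analysis was possible because no library column could be tied to a sample. Leaving out each culture, DESeq2 and edgeR refits and fits with no filter were not run for the same reason. The deposited SE sets what was detectable, which for Klf2 and Id3 was little.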
